A study of Mus musculus with 19 samples.

Results

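The comparison described here is between mice with extra lipoprotein lipase in muscle and wild-type mice, both taken after 24 h of refeeding that followed a period of weight loss maintenance. It was formed from the sample labels alone, and uses 9 of the 19 libraries of the study: 4 labelled WT_REL and 5 labelled mCK-hLPL_REL. All were made from gastrocnemius, a calf muscle of mainly fast fibres, of FVB mice. WT stands for wild type. mCK-hLPL stands for a transgene in which the muscle creatine kinase promoter drives human lipoprotein lipase. That promoter is active in skeletal muscle and also in heart. REL is the labels' name for the first day of weight regain. The other 10 libraries are WT_WLM and mCK-hLPL_WLM, 5 of each, from the same genotypes in weight loss maintenance. They entered the fit and are quoted only beside refeeding values. Age and founder lines were not stated in the labels. Nor do they say that every library came from its own animal, and the p-values therefore reflect the spread among libraries, which may be partly technical. The numbers of the remaining WT_REL columns could not be tied to one sample title each, and those libraries are called replicates A and B.

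Lipoprotein lipase splits the triglyceride of circulating lipoproteins at the capillary wall, so that fatty acids can enter the tissue. Angiopoietin-like proteins inhibit it, and GPIHBP1 carries it across the capillary cell. In muscle, refeeding after food restriction lowers the use of fatty acids and ketone bodies and raises the use of glucose. The muscle acetylcholine receptor, which also appears below, is a pentamer of subunits encoded by Chrna1, Chrnb1, Chrnd and either Chrne in adult muscle or Chrng in fetal and denervated muscle. Acetylcholinesterase, encoded by Ache, breaks down its transmitter at the synapse.

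Total counts were 36255174 to 49025261 in the WT_REL libraries and 35595030 to 50558640 in the mCK-hLPL_REL libraries. Of 54176 gene symbols, 17028 passed the filter on low counts and were tested. Summed levels of 10 skeletal muscle fibre markers were 120123 to 166914 CPM across the 9 refed libraries, CPM being a gene's share of its library's counts scaled to the usual common total. Of lipoprotein lipase the table lists only the mouse symbol Lpl. The labels do not say where reads of the transgene went, so that row can be read neither as the mouse gene alone nor as a measure of the transgene. No replicate pair within a group agreed within sampling noise (lowest chi-square per degree of freedom of 16 pairs, 25.6).

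Refed mCK-hLPL muscle differed from refed wild-type muscle at 2 genes, 0.0117% of those tested, by edgeR's quasi-likelihood test at a Benjamini-Hochberg adjusted p under 0.05. Both were higher with the transgene: Chrna1, the acetylcholine-binding subunit of the muscle receptor, and Katnal2, which encodes a protein of the katanin family of microtubule-severing enzymes. No gene was called lower in this fit, while 362 genes were lower at an unadjusted p under 0.05. DESeq2 called 16 lower and limma-voom with library weights called 5 lower. The edgeR fit of the 9 refed libraries alone called 3 genes, Chrna1 and Katnal2 higher and Kcng4 lower. The unadjusted count was 743 genes (4.36%) against 851 expected if no gene differed, with 381 higher (2.24%) and 362 lower (2.13%). In 244 genes (1.43%) the libraries of the groups did not overlap, 123 higher (0.722%) and 121 lower (0.711%). The median log2 difference over all tested genes was 0.01, and the median standard error (SE) was 0.15. Log2 differences are mCK-hLPL_REL minus WT_REL throughout, given ± SE, and adjusted p-values are over all 17028 genes. Levels are CPM on TMM-scaled library sizes.

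**Figure D1:**
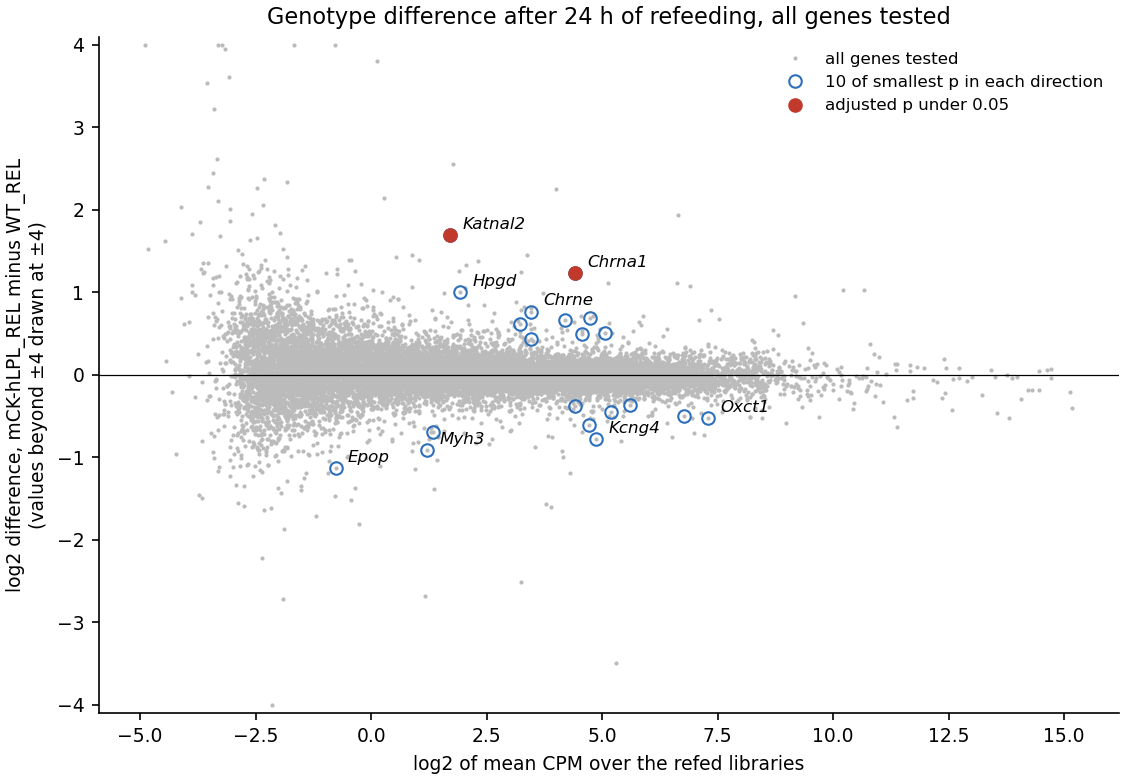
Each point is 1 of the 17028 tested genes, with its log2 mean CPM over the refed libraries on the x axis and its log2 difference, mCK-hLPL_REL minus WT_REL, on the y axis. Filled circles mark Chrna1 and Katnal2, the genes past the adjusted threshold. Open circles mark the 10 genes of smallest p in each direction, leaving out provisional symbols. Many genes of low level show larger differences than the marked genes but no call.

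Chrna1 (chromosome 2, 73563215 to 73580338, minus strand, GRCm38) stood at 14.6, 10.6, 14.1 and 11.8 CPM in WT_REL replicates 1, 2, A and B. In mCK-hLPL_REL replicates 1 to 5 it stood at 32.2, 31.9, 30.6, 28.8 and 26.4 CPM. The lowest transgenic library was thus well above the highest wild-type one. The log2 difference was 1.23 ± 0.12 (adjusted p = 2.59e-05). Bulk RNA does not tell more RNA per cell from more cells or nuclei of a kind, here for example nuclei under the synapse.

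The other receptor subunits did not all follow. Chrne (chromosome 11, 70614883 to 70619216, minus strand), the adult subunit, was at 7.95, 5.99, 10.1 and 8.45 CPM in the wild-type libraries and at 15.6, 14.1, 14.0, 12.2 and 13.1 CPM in the transgenic ones. The groups did not overlap, and the log2 difference was 0.76 ± 0.14, which missed the threshold in the edgeR fit (adjusted p = 0.0923). DESeq2 and limma-voom with library weights called Chrne higher. Chrnb1, the beta subunit, overlapped between the groups (14.7 to 21.5 against 17.9 to 24.3 CPM), with a log2 difference of 0.13 ± 0.12. Chrnd, the delta subunit, also overlapped, at 1.94 to 2.37 against 1.30 to 1.94 CPM, and its log2 difference was -0.34 ± 0.17 (unadjusted p = 0.0603). Chrng, the fetal subunit, was low in every library, between 0.112 and 0.535 CPM, with a log2 difference of -0.44 ± 0.42. Chrna1 and Chrne thus had high values in the same 5 libraries, and the fetal subunit did not.

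The promoters of 5 genes of this synapse are shown because their transcripts are set side by side here: Chrna1 and Chrne, whose groups did not overlap, Chrnb1 and Chrng, whose groups did, and Ache, described next. Each is the RefSeq GRCm38.p6 sequence from 250 bases before the transcription start to 50 after it, 5' to 3' on the gene's strand. Capitals mark 3 searched motifs: the E-box core CAGCTG, the E-box core CACCTG or its reverse complement CAGGTG, which myogenic factors can bind, and the N-box CCGGAA or its reverse complement TTCCGG, known from synaptic genes. None of these motifs overlap one another.
Chrna1, chr2:73580289-73580588, minus strand: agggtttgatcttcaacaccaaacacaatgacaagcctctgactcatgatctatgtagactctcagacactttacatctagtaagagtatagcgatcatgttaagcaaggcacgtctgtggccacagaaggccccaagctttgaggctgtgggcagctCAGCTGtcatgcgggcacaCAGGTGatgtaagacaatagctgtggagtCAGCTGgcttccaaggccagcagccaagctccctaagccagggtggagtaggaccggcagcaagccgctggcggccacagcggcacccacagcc
Chrne, chr11:70619145-70619444, minus strand: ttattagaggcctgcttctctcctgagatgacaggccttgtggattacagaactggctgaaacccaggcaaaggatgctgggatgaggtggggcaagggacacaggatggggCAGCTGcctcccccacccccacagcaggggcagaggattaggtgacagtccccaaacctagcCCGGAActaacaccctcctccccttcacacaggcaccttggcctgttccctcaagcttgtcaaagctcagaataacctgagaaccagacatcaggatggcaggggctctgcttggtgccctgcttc
Chrnb1, chr11:69795888-69796187, minus strand: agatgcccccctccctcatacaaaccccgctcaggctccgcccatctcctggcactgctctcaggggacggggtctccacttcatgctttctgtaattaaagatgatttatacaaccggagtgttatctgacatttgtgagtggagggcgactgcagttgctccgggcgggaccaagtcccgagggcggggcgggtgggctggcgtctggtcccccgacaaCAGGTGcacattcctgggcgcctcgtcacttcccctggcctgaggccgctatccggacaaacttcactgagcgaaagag
Chrng, chr1:87205561-87205860, plus strand: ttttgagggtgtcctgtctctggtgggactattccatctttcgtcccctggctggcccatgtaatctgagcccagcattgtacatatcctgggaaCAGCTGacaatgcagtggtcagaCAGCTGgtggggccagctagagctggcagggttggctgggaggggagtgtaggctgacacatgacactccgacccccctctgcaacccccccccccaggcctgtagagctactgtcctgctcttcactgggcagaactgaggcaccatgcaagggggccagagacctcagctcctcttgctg
Ache, chr5:137288004-137288303, plus strand: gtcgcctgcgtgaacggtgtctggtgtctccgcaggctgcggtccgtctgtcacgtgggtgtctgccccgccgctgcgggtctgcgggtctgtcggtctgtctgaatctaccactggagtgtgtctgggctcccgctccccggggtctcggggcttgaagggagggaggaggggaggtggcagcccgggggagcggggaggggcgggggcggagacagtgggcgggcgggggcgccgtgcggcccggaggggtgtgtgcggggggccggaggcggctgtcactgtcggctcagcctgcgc

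The Chrna1 window held CAGCTG with first bases at -92 and -44 and CAGGTG at -73, counted from the start. Chrne held CAGCTG at -138 and CCGGAA at -76, and Chrnb1 held CAGGTG at -29. Chrng, whose transcript was not higher, held CAGCTG at -155 and -132. In the Ache window none of the motifs was found. Among 32851 RefSeq mouse promoters of the same length, CAGCTG was present in 16.3%, CACCTG or CAGGTG in 20.2%, and CCGGAA or TTCCGG in 14.9%. A match describes these letters and does not show a bound site.

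Ache (chromosome 5, 137287519 to 137294466, plus strand) was at 20.96, 17.8, 21.03 and 21.6 CPM in the wild-type libraries and at 33.5, 34.6, 41.5, 28.3 and 25.4 CPM in the transgenic ones. The groups did not overlap, with a log2 difference of 0.68 ± 0.14 that did not pass the threshold in the edgeR fit (adjusted p = 0.174). DESeq2 and limma-voom with library weights called Ache higher. Prima1, which anchors acetylcholinesterase in membranes, had a log2 difference of -0.82 ± 0.31 (unadjusted p = 0.0152). Ache's collagen tail gene Colq was at 0.06 ± 0.13.

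Over the list of neuromuscular junction and acetylcholine receptor genes, 26 of 27 members were tested. As with every list here, members were chosen with earlier results of these data known, so the shares are no independent support. In the edgeR fit Chrna1 was the only member called (3.85%, against 0.0117% of all genes). At an unadjusted p under 0.05, 4 members (15.4%, against 2.24% of all genes) were higher, namely Chrna1, Chrne, Ache and Ufsp1, and 1 (3.85%, against 2.13%) was lower, Prima1. The median log2 difference of the list was 0.03, beside 0.01 for all genes, with 14 members higher and 12 lower. Members that build or cluster the synapse gave small differences: the receptor kinase Musk 0.19 ± 0.14, the receptor-clustering protein Rapsn 0.02 ± 0.10, the adaptor Dok7 -0.14 ± 0.13, and the agrin receptor Lrp4 -0.17 ± 0.15. A list of 11 genes known to respond to denervation did not hold Chrna1, which was counted in the list above. Of those 11, 1 was higher at an unadjusted p under 0.05 (9.09%, against 2.24% of all genes). Another 1 was lower at that p (9.09%, against 2.13%). The higher one was Ncam1, a cell adhesion molecule (0.27 ± 0.13), and the lower one was Myh3, the embryonic myosin. The myogenic factor Myog, also among the 11, had a log2 difference of 0.05 ± 0.29. Schwann cell and nerve markers had summed levels of 148.9 to 257.9 CPM in wild-type and 162.5 to 243.7 CPM in transgenic libraries, so they overlapped.

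**Figure D2:**
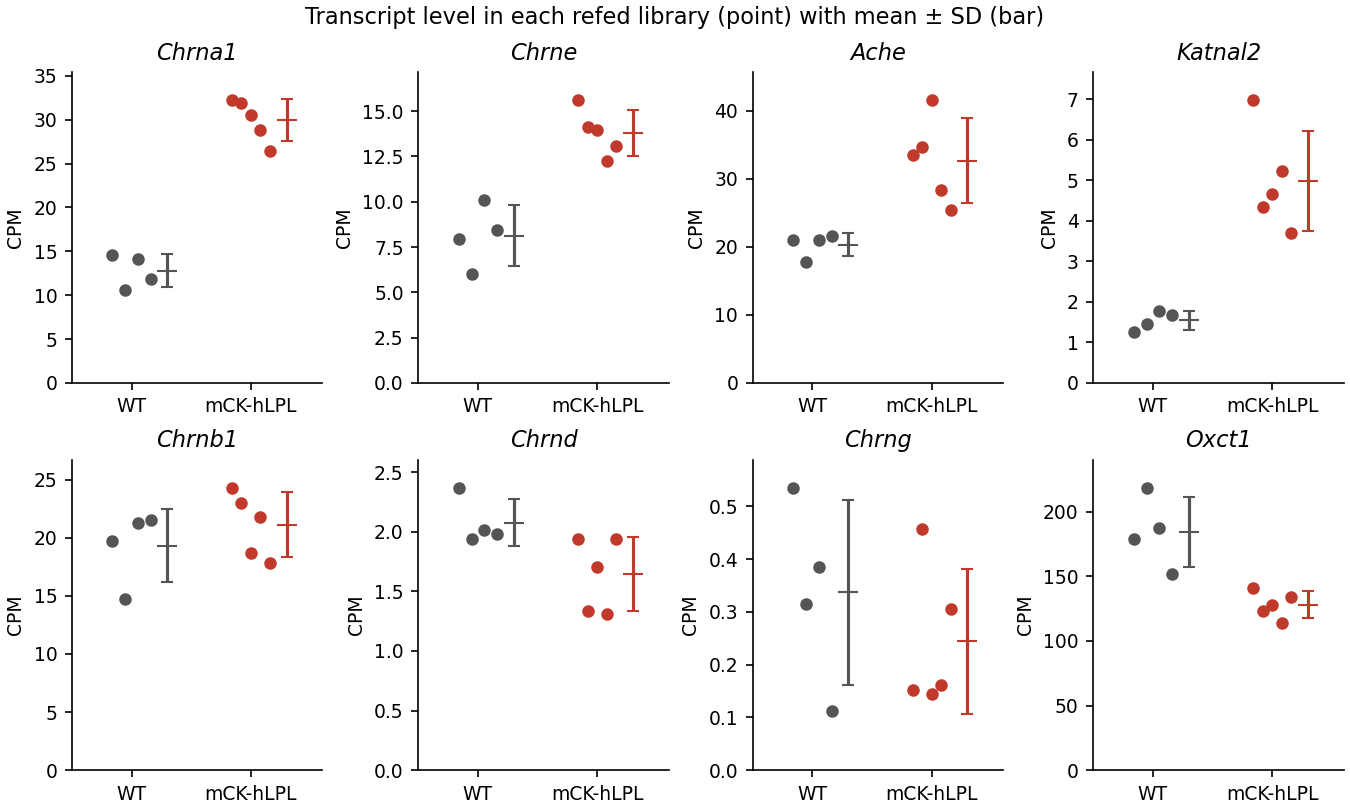
CPM of 8 genes in each refed library, WT_REL in grey (n = 4) and mCK-hLPL_REL in red (n = 5), with the mean and SD as a bar beside the points. The groups do not overlap for Chrna1, Chrne, Ache, Katnal2 or Oxct1, and they overlap for Chrnb1, Chrnd and Chrng.

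Katnal2 (chromosome 18, 76977148 to 77047308, minus strand) was at 1.26, 1.46, 1.76 and 1.68 CPM in the wild-type libraries. In the transgenic libraries it was at 6.98, 4.35, 4.67, 5.24 and 3.71 CPM. Every transgenic library lay above every wild-type one. The log2 difference was 1.69 ± 0.16 (adjusted p = 2.59e-05).

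Below these genes, the 10 genes of smallest p in each direction, leaving out provisional symbols, hold 8 further higher genes and 10 lower ones, all with adjusted p-values between 0.0923 and 0.279 and with groups that did not overlap. DESeq2 called all of them. It also called 2310065F04Rik lower, a provisional symbol left out here (-0.75 by DESeq2, edgeR adjusted p = 0.0923). Among the higher ones was Fbp2, the muscle fructose-bisphosphatase, at 11.3 to 16.4 CPM in wild-type and 18.1 to 25.0 CPM in transgenic libraries (log2 difference 0.67 ± 0.13, adjusted p = 0.0923). Hpgd, which inactivates prostaglandins, had the largest difference of the 8, 1.0 ± 0.21 (adjusted p = 0.134), and ran from 1.57 to 3.01 CPM in wild-type and from 3.75 to 7.13 CPM in transgenic libraries. Ccl25, a chemokine, was at 0.62 ± 0.12 (adjusted p = 0.12).

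The remaining higher genes gave smaller differences. The MHC class I-like gene H2-T10 was at 0.49 ± 0.11, the peroxiredoxin-like gene Prxl2a at 0.50 ± 0.11 and the tetraspanin gene Tspan14 at 0.43 ± 0.10. H2-T10 has close relatives in the same family, and reads shared with them could move its count.

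On the lower side, Kcng4, a modifier subunit of voltage-gated potassium channels, was at 37.2, 38.5, 36.4 and 36.2 CPM in the wild-type libraries and at 19.04, 24.2, 21.7, 19.5 and 23.6 CPM in the transgenic ones. The gap between the groups was wider than the spread within either, and the log2 difference was -0.78 ± 0.15 (adjusted p = 0.0923). Kcnc4, which encodes a potassium channel pore subunit, was at -0.37 ± 0.08 (adjusted p = 0.233). Epop, whose protein binds Elongin and Polycomb complexes, had the largest difference of these 10, -1.13 ± 0.22 (adjusted p = 0.103), but its levels were below 1 CPM, 0.721 to 0.882 against 0.301 to 0.49. Stxbp4, which encodes a syntaxin-binding protein, was at -0.46 ± 0.09 (adjusted p = 0.0923).

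Myh3 ran from 2.16 to 4.24 CPM in wild-type and from 1.09 to 2.04 CPM in transgenic libraries, with a log2 difference of -0.91 ± 0.20 (adjusted p = 0.237). Mical2, an actin-oxidising enzyme, was at -0.50 ± 0.10 and the coiled-coil gene Ccdc85c at -0.61 ± 0.13. Adra1a, an alpha-adrenergic receptor, was at 2.84 to 3.47 CPM against 1.41 to 2.18 CPM, a log2 difference of -0.70 ± 0.16 (adjusted p = 0.279). Outside those 10, Trnp1, a nuclear regulator of cell cycle and fate known from brain development, was at 2.21 to 4.75 CPM against 1.11 to 1.80 CPM (-1.38 ± 0.32, adjusted p = 0.279).

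Genes for the use of ketone bodies and branched-chain amino acids had mostly lower estimates in refed mCK-hLPL muscle. None passed the threshold in the edgeR fit. Of 24 members, all tested, 22 had lower and 2 had higher estimates, and the median log2 difference was -0.17 beside 0.01 for all genes. At an unadjusted p under 0.05, 11 members (45.8%) were lower and 0 higher, where 2.13% of all genes were lower. The groups did not overlap for 3 members (12.5%, against 0.711% of all genes in the lower direction), Oxct1, Pcca and Mmut. These differences are small, and 7 of 24 members stood at that p, with a median of -0.10, when counts were scaled by their total alone.

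Oxct1 (chromosome 15, 4026383 to 4155344, plus strand) encodes the enzyme that commits ketone bodies to use outside the liver. It was at 179, 218.6, 187.5 and 152.2 CPM in the wild-type libraries and at 141.4, 123.2, 128.2, 113.7 and 134.1 CPM in the transgenic ones. The groups stood apart with a narrow gap, and the log2 difference was -0.52 ± 0.10 (adjusted p = 0.0923). Bdh1, the enzyme upstream of it, was at -0.42 ± 0.17 and overlapped.

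Pcca (chromosome 14, 122534324 to 122891100, plus strand), a subunit of propionyl-CoA carboxylase, was at 23.6, 24.6, 23.9 and 24.2 CPM in the wild-type libraries and at 17.8, 18.1, 17.6, 20.2 and 18.8 CPM in the transgenic ones. Its wild-type values lay within 1 CPM of each other, all above the transgenic ones, with a log2 difference of -0.38 ± 0.07 (adjusted p = 0.0923). Mmut, which acts after propionyl-CoA carboxylase, was at 45.2 to 53.0 CPM against 37.7 to 43.4 CPM, a log2 difference of -0.31 ± 0.07 (adjusted p = 0.288).

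Members nearer the start of branched-chain breakdown had estimates of like size with overlapping groups: the mitochondrial aminotransferase Bcat2 at -0.37 ± 0.11, the dehydrogenase component Dbt at -0.27 ± 0.09 and isovaleryl-CoA dehydrogenase Ivd at -0.37 ± 0.10. The dehydrogenase subunits Bckdha and Bckdhb were at -0.15 ± 0.09 and -0.14 ± 0.08. The kinase that inhibits the complex, Bckdk, was at -0.08 ± 0.10. Hibch and Auh, at 0.03 ± 0.08 and 0.03 ± 0.10, were the members with higher estimates.

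**Figure D3:**
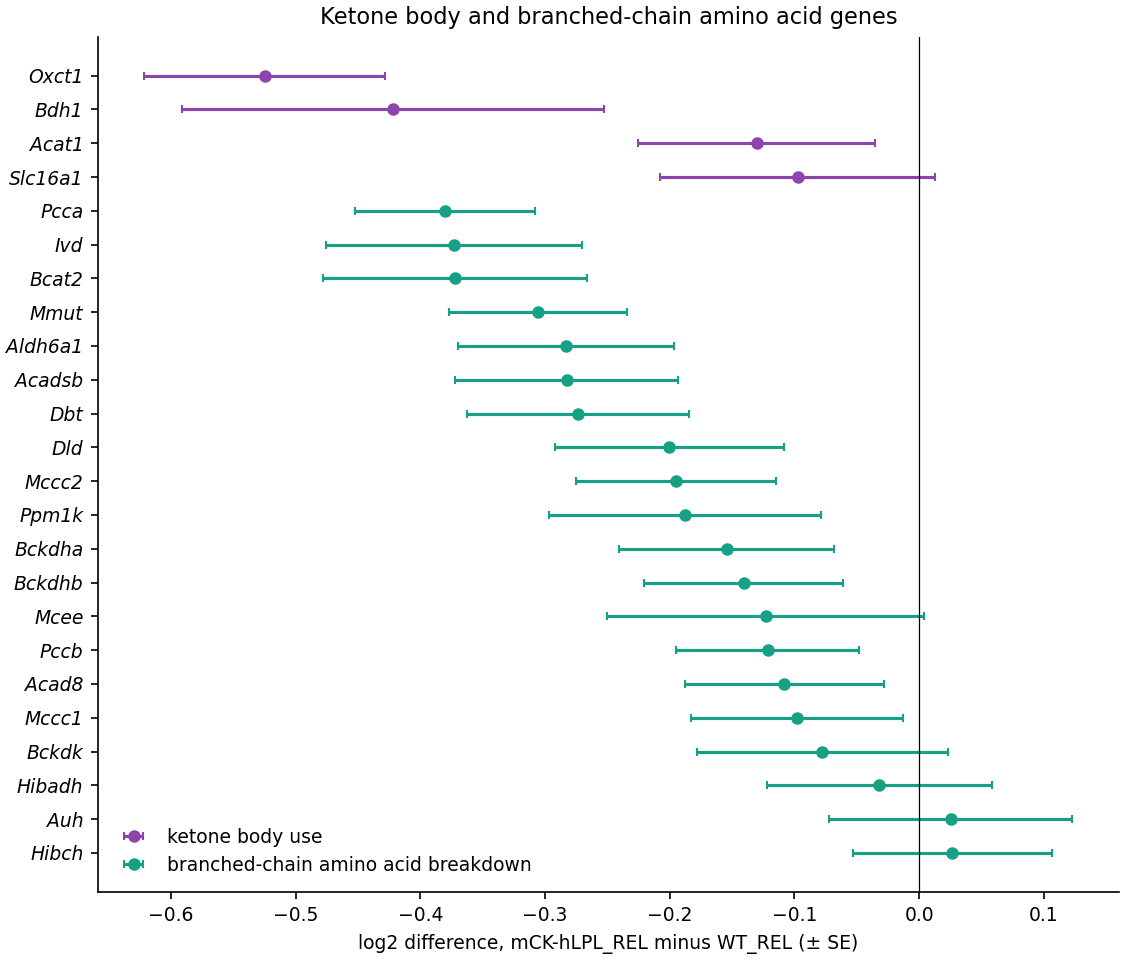
Log2 difference, mCK-hLPL_REL minus WT_REL, with its SE as a bar, for the 24 ketone body and branched-chain amino acid genes. Of these, 22 points lie below 0, with Oxct1 at -0.52 the lowest, and Hibch and Auh lie slightly above it.

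In carbohydrate use, Fbp2 had a higher estimate, and of 4 genes of glucose uptake and phosphorylation 3 had lower estimates and 1, Hk1, a higher one (0.04 ± 0.15), none past the threshold. Hk2, the insulin-responsive hexokinase, was at 202.8 to 248.5 CPM in wild-type and 134.2 to 214.3 CPM in transgenic libraries (log2 difference -0.43 ± 0.11, adjusted p = 0.43). Slc2a4, the insulin-responsive glucose transporter GLUT4, was at 373.9 to 436.5 CPM against 286.5 to 370.4 CPM, groups that did not overlap, with a log2 difference of -0.26 ± 0.10 (unadjusted p = 0.0178). Of 34 members of the glucose uptake, glycolysis and glycogen list, 0 were called, 1 was higher (2.94%, near the 2.24% of all genes) and 3 lower (8.82%, against 2.13%) at an unadjusted p under 0.05, and the median was -0.09. Pdk4, the kinase that shuts off pyruvate oxidation in fasting, spanned 141.7 to 515.5 CPM in wild-type and 220 to 657.2 CPM in transgenic libraries, a log2 difference of 0.27 ± 0.37.

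Genes of lipid handling gave no call. The Lpl row, which may include human reads in the transgenic libraries, was at 496.3, 697.1, 749 and 754.4 CPM in the wild-type libraries and at 691.6, 941.2, 810.3, 729.7 and 869.9 CPM in the transgenic ones. The groups overlapped, with a log2 difference of 0.26 ± 0.13 (unadjusted p = 0.0527) and an exact two-sided permutation p of 0.159 over the 9 libraries. None of the 14 genes of lipoprotein lipase and its regulators had an unadjusted p under 0.05. Gpihbp1 was at 0.31 ± 0.16 and the inhibitor Angptl4 at 0.34 ± 0.32. The fatty acid carrier Cd36 was at 0.15 ± 0.11.

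Of 30 fatty acid oxidation genes, 19 had higher and 11 lower estimates, with a median log2 difference of 0.05. At an unadjusted p under 0.05, 5 were higher (16.7%, against 2.24% of all genes) and 0 lower. They were Acadl, long-chain acyl-CoA dehydrogenase (0.28 ± 0.10), Eci2, an enoyl-CoA isomerase (0.20 ± 0.08), the carnitine carrier Slc25a20 (0.24 ± 0.10), Cpt1a (0.32 ± 0.15) and Mlycd (0.22 ± 0.10), all with overlapping groups. Cpt1b, the muscle form of the carnitine palmitoyltransferase, was at 0.00 ± 0.09. This count varied between 2 and 5 when each refed library was left out, with 2 left without WT_REL replicate 1 or B or mCK-hLPL_REL replicate 4. The list median was -0.01 when WT_REL replicate B and mCK-hLPL_REL replicate 5 were both left out. Ucp3, an uncoupling protein raised by fasting, was at 0.20 ± 0.31, and its wild-type libraries alone spanned 74.6 to 176.2 CPM. Srebf1, the master regulator of fatty acid synthesis, was at -0.45 ± 0.14 (adjusted p = 0.894), while the synthase Fasn was at 0.02 ± 0.52 with a range of 411.7 to 1483 CPM over the refed libraries. Ppara and Ppargc1a, which drive oxidative genes, were at -0.29 ± 0.19 and -0.14 ± 0.08.

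Slow fibre genes had lower estimates without a call. Of 17 members, 14 were lower, 4 of them (23.5%, against 2.13% of all genes) at an unadjusted p under 0.05, and the median was -0.23. All 10 contractile members had lower estimates. Myh7, the slow myosin heavy chain, was at 497.5 to 731 CPM in wild-type and 288.1 to 592.4 CPM in transgenic libraries (-0.59 ± 0.19, adjusted p = 0.934). Atp2a2, the slow-fibre calcium pump, was at -0.51 ± 0.16 and the slow tropomyosin gene Tpm3 at -0.42 ± 0.15. Of 15 fast fibre genes, 14 also had lower estimates, none at an unadjusted p under 0.05, with a median of -0.07. Leaving out WT_REL replicate A brought the slow median to -0.13, and leaving out mCK-hLPL_REL replicate 5 raised the count at that p from 4 to 7. Sln, a small inhibitor of the calcium pump, was at -0.09 ± 0.27.

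The 31 tested of 32 interferon response genes all had higher estimates, with a median log2 difference of 0.34, although none was called. At an unadjusted p under 0.05, 7 were higher (22.6%, against 2.24% of all genes). Psmb8, an immunoproteasome subunit, was at 8.21 to 14.1 CPM in wild-type and 12.5 to 20.3 CPM in transgenic libraries (0.54 ± 0.21), and Psmb9, another such subunit, was also at 0.54 ± 0.21. Gbp3, a guanylate-binding protein, was at 0.74 ± 0.30. The mean over the list of log2 CPM was 1.55, 1.93, 1.59 and 1.87 in the wild-type libraries and 1.90, 2.26, 2.28, 1.82 and 2.27 in the transgenic ones, so the groups overlapped. Without WT_REL replicate 1 the count at that p was 0, without WT_REL replicate A or mCK-hLPL_REL replicate 5 it was 2, and with a score of erythroid genes in the fit it was 1. Markers of another cell type had the same sign: all 10 macrophage markers had higher estimates (median 0.22), with summed levels of 140.3 to 217.6 CPM in wild-type and 152.4 to 315.7 CPM in transgenic libraries. Of 12 tested T, B and plasma cell markers 10 had higher estimates (median 0.90), none at an unadjusted p under 0.05. Their summed levels were 296.5 to 449.4 CPM in wild-type and 230.8 to 482.4 CPM in transgenic libraries, and 99.3% of that was Ighm, itself at -0.06 ± 0.24. In weight loss maintenance the interferon list had a median of -0.09, with 23 members lower and 8 higher. The lymphocyte list there had a median of -1.12, with 11 lower and 1 higher, and the macrophage list a median of 0.02. The part of these cell types in the interferon values was not tested.

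Among 14 tested of 17 secreted factors of muscle, 11 had higher estimates and 4 (28.6%, against 2.24% of all genes) were higher at an unadjusted p under 0.05, none called. Ostn, which encodes the natriuretic peptide-related hormone osteocrin, was at 50.4, 42.5, 46.7 and 43.0 CPM in the wild-type libraries and at 71.1, 68.6, 56.9, 69.0 and 81.3 CPM in the transgenic ones. The groups stood apart, with a log2 difference of 0.60 ± 0.15 (adjusted p = 0.406). Sema3a, an axon guidance factor, was at 0.48 ± 0.17, and the peptide hormone gene Apln was at 0.71 ± 0.33, both with overlapping groups. Apln was low, at 0.608 to 0.927 CPM in wild-type and 0.783 to 2.36 CPM in transgenic libraries, highest in mCK-hLPL_REL replicate 2. Ccl25, given above, completes the 4. Of 18 heat shock proteins, 12 had higher and 6 lower estimates, with a median of 0.07, and none was called. At an unadjusted p under 0.05, 2 were higher (11.1%, against 2.24% of all genes) and 0 lower: Hspb1 was at 0.78 ± 0.34 and Cryab at 0.63 ± 0.30, with mCK-hLPL_REL replicate 2 the highest library for both (375.4 and 1418 CPM). The groups overlapped for both, and mCK-hLPL_REL replicate 3 (97.8 and 383.4 CPM) lay below every wild-type library. In weight loss maintenance 13 of the 18 had lower estimates, 6 of them at an unadjusted p under 0.05. Among all 17028 genes in that phase 8535 had lower estimates, 421 of them at that p.

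**Figure D4:**
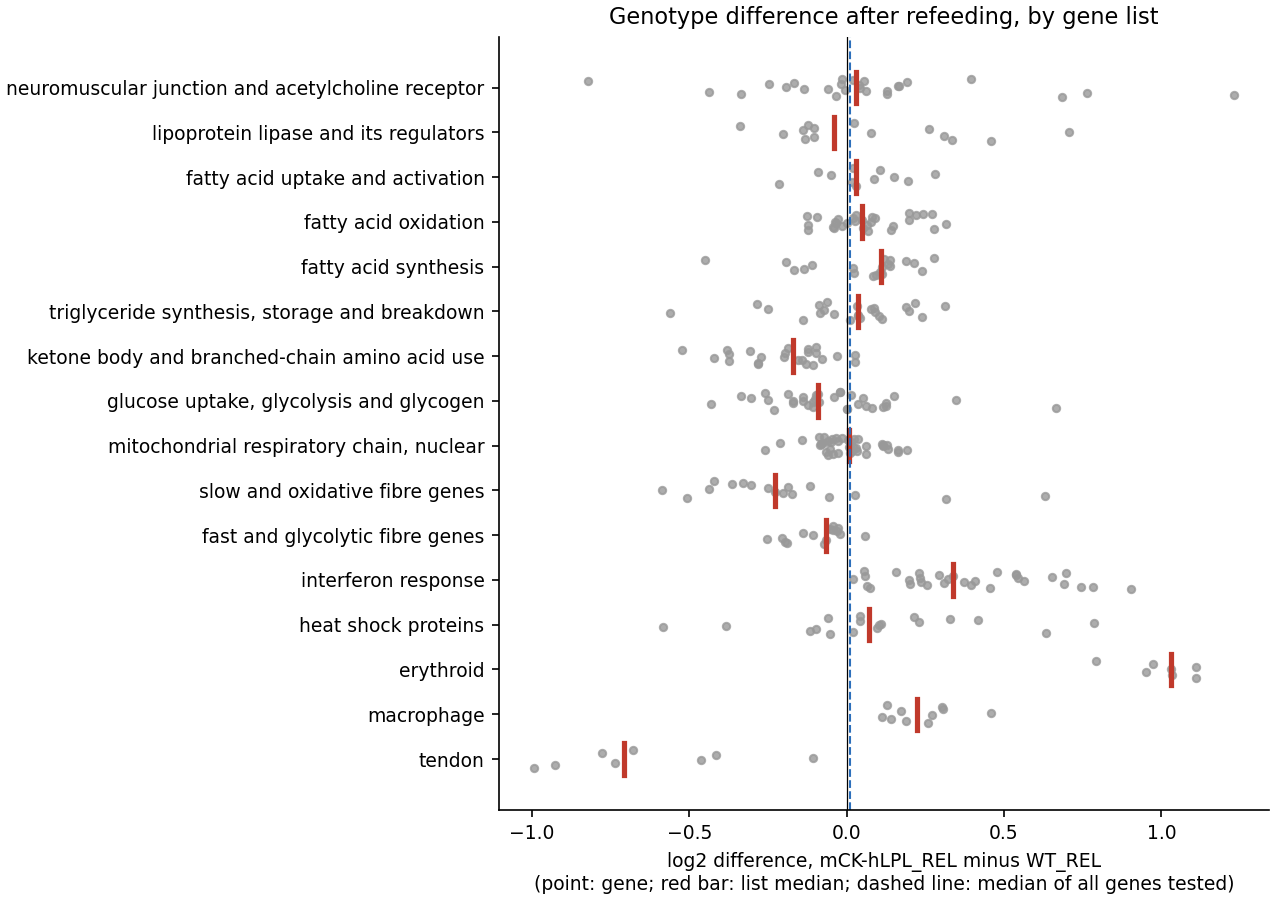
Log2 difference, mCK-hLPL_REL minus WT_REL, for each tested gene (grey points) of 16 gene lists, with the list median as a red bar and the median of all tested genes, 0.01, as a dashed line. The medians are -0.17 for ketone body and branched-chain amino acid use, 0.34 for the interferon response, 1.03 for erythroid and -0.71 for tendon markers.

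Blood, tendon and liver transcripts varied between the refed libraries. All 7 tested erythroid genes had higher estimates (median 1.03), with summed levels of 1018 to 4485 CPM in wild-type and 1776 to 11662 CPM in transgenic libraries, and without mCK-hLPL_REL replicate 1 the median was 0.35. The globin pairs Hba-a1 and Hba-a2, and Hbb-bs and Hbb-bt, are near-identical, so the split of reads within each is uncertain. All 8 tendon genes had lower estimates (median -0.71), with sums of 106.9 to 449.6 CPM against 156 to 260.6 CPM. Liver transcripts were highest in WT_REL replicate B and mCK-hLPL_REL replicate 5 (237.8 and 237.4 CPM), beside 36.1 to 135.7 CPM in the others. Of that sum 50.6% was Trf, at 29.1 to 74.6 CPM across the refed libraries. Alb was at 104.9 and 98.3 CPM in those libraries and at 49.2 CPM in mCK-hLPL_REL replicate 4. In the rest Alb was at 1.19 to 5.61 CPM. Chrna1 and Katnal2 were called again with the erythroid, fat cell or liver score in the fit, and also without both libraries richest in liver transcripts. That last fit kept mCK-hLPL_REL replicate 4.

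The libraries of weight loss maintenance share no sample with the refed ones, but both phases came from 1 fit and share each gene's estimate of spread. The genotype difference in weight loss maintenance was set beside the refeeding values. In that phase 5 genes were called (0.0294%) and 828 had an unadjusted p under 0.05 (4.86%). Of the 20 genes of smallest p after refeeding (10 in each direction, no provisional symbols), 20 had the same sign in weight loss maintenance, against 55.8% of all tested genes. With an unadjusted p under 0.05 there as well were 18 (90%), against 3.34%. That share is not an independent check, because a gene of small shared spread tends to a small p in both phases. Chrna1 was at 1.29 ± 0.11 and Katnal2 at 1.49 ± 0.15 in that phase, both called there. Chrne was at 0.68 ± 0.13, Ache at 0.47 ± 0.14 and Oxct1 at -0.39 ± 0.09, none of them called. The other genes called in that phase were Fbp2 at 0.72 ± 0.12, Ostn at 0.99 ± 0.14 and Trnp1 at -1.83 ± 0.30. The ketone body and branched-chain list had 20 lower and 4 higher estimates, with a median of -0.09.

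**Figure D5:**
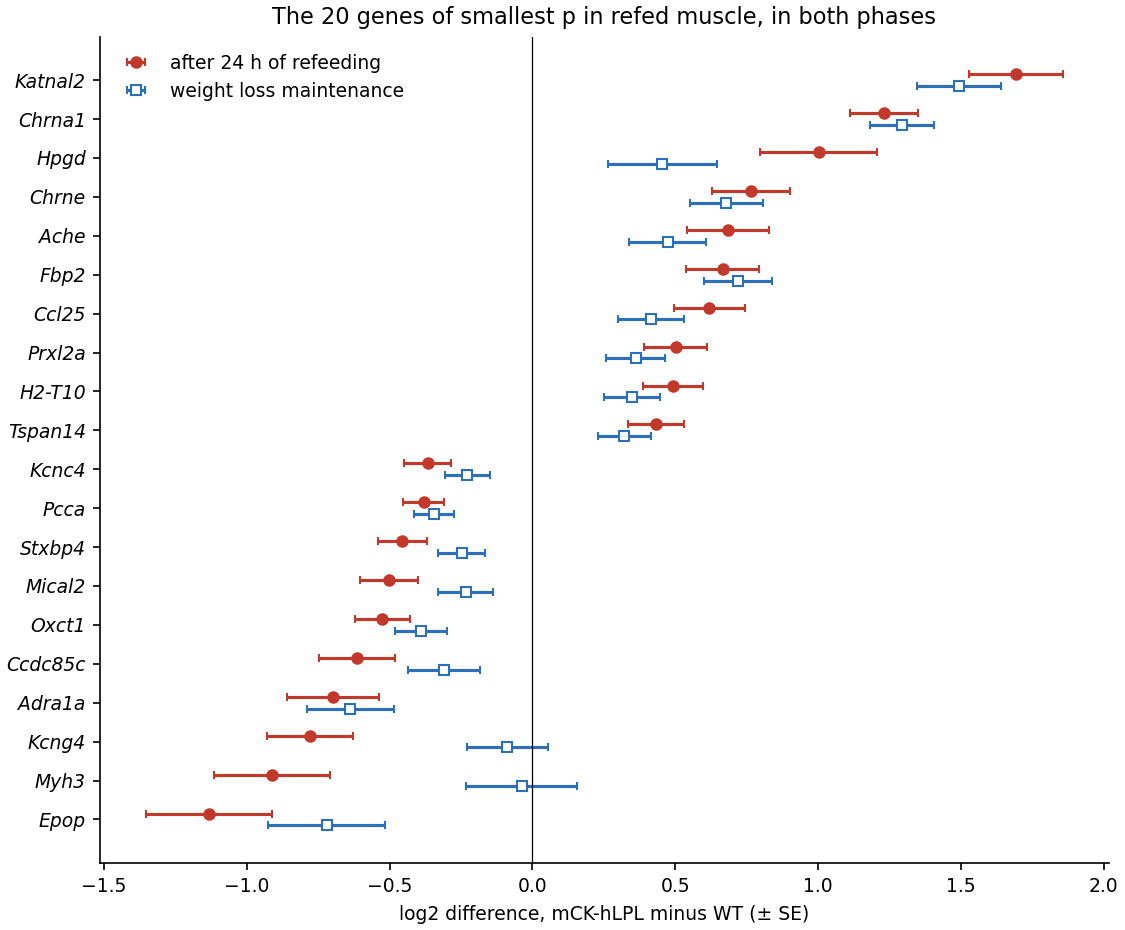
Log2 difference, mCK-hLPL minus WT, with its SE, for 20 genes after refeeding (filled circles), beside the same genes in weight loss maintenance (open squares). They are the 10 of smallest p in each direction after refeeding, leaving out provisional symbols. All lie on the same side of 0 in both phases, and Kcng4 and Myh3 lie near 0 in weight loss maintenance.

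A genotype difference particular to refeeding was sought in the genotype by phase interaction. The edgeR test called 0 genes, with 403 (2.37%) at an unadjusted p under 0.05 against 851 expected if no gene differed. Limma-voom with library weights called 0. The interaction SE is the larger one (for Kcng4 0.21, beside 0.15 for the refeeding difference), so 0 calls do not show that no such difference exists. DESeq2 called 2, the provisional symbols Gm12693 and Gm7666, at fitted log2 values of 23.4 and 23.9, and Gm7666 had no count in 5 of the 9 refed libraries. For Chrna1 the interaction was -0.06 ± 0.16 and for Katnal2 0.20 ± 0.22 on the log2 scale, neither past the threshold. Kcng4 was at -0.09 ± 0.14 in weight loss maintenance, an interaction of -0.69 ± 0.21 (unadjusted p = 0.00334, adjusted p = 1), and Myh3 was at -0.04 ± 0.19 there, an interaction of -0.87 ± 0.28 (unadjusted p = 0.00581, adjusted p = 1). The smallest interaction p-values belonged to Rpl38-ps2, a ribosomal protein pseudogene whose reads may come from its parent gene (1.89 ± 0.43), D430041D05Rik (-0.48 ± 0.12), the interferon-induced gene Trim30a (0.69 ± 0.17) and the DNA damage checkpoint gene Hus1 (-0.42 ± 0.11), all with an adjusted p of 1.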

How the data were processed

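RNA of gastrocnemius was isolated with an RNeasy kit and made into libraries with the NuGEN Universal Plus mRNA kit, per the labels. The authors deposited 1 table of values per gene symbol, taken here as raw counts because its name says so, all values are whole and the library totals differ. A sheet label reads instead as a variance-stabilising transform. The submitters' processing notes name the builds GRCm38 and mm10, DESeq2 1.28.1 and Salmon 0.14.2. The role of each, the annotation and the strand setting were not stated, so antisense and overlapping genes cannot be told apart. A spreadsheet had turned 24 symbols into dates (0.0628% of counts); these are not named. Positions came from GENCODE on GRCm38, by symbol, with 52503 of 54176 symbols matched.

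Genes were filtered with filterByExpr (minimum count 10, minimum total count 15), scaled by TMM and tested with edgeR 4.0.16 (glmQLFit, glmQLFTest; R 4.3.3) in 1 model of 4 group means over all 19 libraries, so that WLM libraries share the estimate of spread. Tests were two-sided with Benjamini-Hochberg adjustment and a threshold of 0.05. The SE is the log2 difference divided by the square root of F. The script was tested on simulated data. Total counts are 35595030 or more per library, and depth limits genes of low count only. Alternatives were other filters, scalings, DESeq2 1.42.0, limma 3.58.1, covariates, a replicate block, the refed libraries alone and leaving out each library. Members and gene lists were chosen with earlier results of these data known. Genes named were those called, the 10 of smallest p in each direction (no provisional symbols), up to 3 members a list and a few of prior interest. Some called only by an alternative fit are also named. Cpt1a, Mlycd, Apln, Prima1, Ufsp1, Colq, Musk, Rapsn, Dok7, Lrp4, Myog, Gpihbp1, Fasn, Cpt1b, Bdh1 and the other branched-chain genes after Mmut were named after their values were seen.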

Additional observations from a re-analysis of the deposited data

Results flagged for a closer look

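Among 142 sets of values (a gene or marker sum in 1 refed group), 8 had a library far from the others of its group by Dixon's criterion, where chance alone flags about 1 in 20. In the wild-type group these were Ache in WT_REL replicate 2 (17.8 CPM, others 20.96 to 21.56) and Cd36 in replicate A (244.8 CPM, others 208.4 to 213.8). The liver marker sum in replicate B was 237.8 CPM (others 39.8 to 57.1), and its Schwann cell and nerve sum was 257.9 CPM (others 148.9 to 166). The tendon sum of replicate A was 106.9 CPM (others 395.3 to 449.6). In the transgenic group, Cd36 in mCK-hLPL_REL replicate 2 was at 277.3 CPM (others 231.5 to 239.8). The skeletal muscle fibre sum in replicate 4 was 166914 CPM (others 120123 to 133413), and the erythroid sum in replicate 1 was 11662 CPM (others 1776 to 3964). No cause was tested.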

How the results depend on the processing

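The 2 genes called after refeeding, Chrna1 and Katnal2, were called under each filter, scaling, covariate and left-out library, with a total of 2 to 3 calls when each of the 19 libraries was left out and 0 to 1 for the interaction. DESeq2 called 28 genes, with the 20 of smallest p among them, provisional symbols left out of that 20. Trnp1 and Mmut were called lower by DESeq2 (adjusted p = 0.0142 and 0.0293). It also called Gm7666 and Gm6563 at log2 22.0 and -22.1, with 5 and 8 of 9 refed libraries at 0. For the interaction DESeq2 called 2 genes. Limma-voom with library weights called 9 genes after refeeding: Chrna1, Katnal2, Chrne, Ache, Kcng4, Oxct1, Pcca, Stxbp4 and the provisional 2310065F04Rik. The cause was not tested. The edgeR fit of the 9 refed libraries alone called 3 genes: Chrna1, Katnal2 and Kcng4. Oxct1 was called lower without WT_REL replicate B, and Chrne was called higher without WT_REL replicate A or with no low-count filter. Other left-out libraries added Padi2, 2310065F04Rik, Ccl25 or Kcng4, and scaling by total counts added Fbp2. The replicate block over the 17 numbered libraries called 1 gene, Katnal2, with Chrna1 at 1.21 and an adjusted p of 0.156, while the same libraries with no block called 2; it leaves 2 wild-type refed libraries. Same-numbered libraries were not shown to deviate together (21 pairs, r from -0.35 to 0.27, 7 over 0.1), so the numbers are not taken as pairs. Their median r was 0.04, beside -0.04 for differently numbered pairs. Between the refed groups, r was 0.14 for replicate 1 and 0.15 for replicate 2. Scaling by total counts raised the share of higher genes among those at an unadjusted p under 0.05 from 51.3% to 87.4%. Genes with no call changed sign in these cases: Ucp3 was at -0.00827 by limma-voom, Sln at 0.0992 with the block, and with 1 library left out Ucp3 ran from -0.094 to 0.47, Pdk4 from -0.0627 to 0.67 and Sln from -0.212 to 0.0721. Depth limits genes under about 1 CPM.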
